A study of Mus musculus with 12 samples.

Results

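The mitochondrial ribosomal proteins were followed in the prefrontal cortex of mice after chronic cocaine. They were taken as the loci that passed the authors' status check and whose gene name began with Mrpl or Mrps and a number. At 2 h this gave 78 genes among 16012 tested loci, at 24 h 78 genes among 17143 loci and at 7 d 79 genes among 16769 loci. In all, 79 genes were found and 78 of them were measured at all 3 times, 48 with a large-subunit symbol (Mrpl) and 30 with a small-subunit symbol (Mrps). The gene that was not measured throughout was Mrps17, which failed the status check at 2 h and 24 h. Male C57BL/6 mice aged 10 weeks received repeated daily injections of saline or of cocaine dissolved in saline. Their prefrontal cortex was taken once 2 h, 24 h or 7 d had passed from the final dose. The 6 groups thus differed in the agent and in the interval, and no genetic modification or further agent is named in the labels. Each group had 2 RNA-seq libraries, and each library combined tissue from 5 mice, 60 mice in total. The deposited tables, 1 for each time, give a single pooled level per group in FPKM, mapped fragments scaled to transcript length and to library size. No spread between libraries can be had from them, so no comparison below carries a test, an error or a p-value.

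Mitochondrial ribosomes sit in the mitochondrial matrix and translate the few proteins that mitochondrial DNA encodes, all of them subunits of the respiratory chain complexes. Their RNA comes from the mitochondrial genome, but every protein of the large and the small subunit is encoded in the nucleus, made in the cytosol and imported. The large subunit holds the site where peptide bonds form, and the small subunit binds the messenger RNA and decodes it. Some of these proteins descend from the bacterial ribosome and others were added during mitochondrial evolution. Neurons depend strongly on oxidative phosphorylation, and the prefrontal cortex is one of the regions altered by repeated cocaine.

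The tissue label was compared with marker genes. All 6 cortical neuron markers examined were present, with Slc17a7, the vesicular glutamate transporter of cortical excitatory neurons, at 466 to 532 FPKM across the 6 groups. The 6 striatal markers found summed to 51.2 to 61.9 FPKM in each group, of which Ppp1r1b alone made 46.4 to 57.7 FPKM, and the other 5 were at or below 2.41 FPKM each. Haemoglobin and other blood genes summed to 323 to 529 FPKM, and Hbb-bs stood at 113 and 170 FPKM in saline and cocaine at 2 h, 141 and 149 FPKM at 24 h, and 171 and 188 FPKM at 7 d. At 2 h the 4 haemoglobin genes had log2 ratios of 0.59 to 0.72. The 6 choroid plexus markers summed to 1.54 to 7.56 FPKM, and all but Ttr were at or below 0.668 FPKM. Ttr was at 1.90 and 0.461 FPKM in saline and cocaine at 2 h, 1.80 and 1.10 FPKM at 24 h, and 0.284 and 6.54 FPKM at 7 d, while Folr1 went the other way at 7 d, with 0.668 and 0.290 FPKM. The part of these other cells in the results below was not tested, and in bulk tissue fewer cells of a type and less RNA per cell cannot be told apart.

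The first comparison asked how cocaine and saline differed at each interval. At 2 h and 24 h the mitochondrial ribosomal protein genes stood close to their saline levels, whereas at 7 d nearly all of them were lower in cocaine. The median log2 ratio of cocaine over saline was -0.03 at 2 h and -0.02 at 24 h, against 0.02 and 0.01 over all tested loci. At 7 d the median was -0.21, a level 13.6% lower, against -0.01 over all loci and -0.03 over the 8722 loci with a mean of at least 5 FPKM. The ratio was below 0 for 47 of 78 genes at 2 h, 43 of 78 at 24 h and 75 of 79 at 7 d. Over all tested loci it was below 0 for 7322 of 16012 at 2 h and 8241 of 17143 at 24 h. At 7 d, 51% of all tested loci lay at or below -0.000909. No gene reached a 1.5-fold difference at 7 d, so the pattern was one of many small differences in 1 direction.

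A difference of at least 1.2-fold was used to count genes in place of a test. At 2 h, 4 of 78 mitochondrial ribosomal protein genes were lower in cocaine by that much, where 11.7% of all loci were, and 1 was higher, where 12.5% of all loci were. At 24 h, 5 were lower against 9.37% of all loci, and 0 were higher against 9.36%. Over loci with a mean of at least 5 FPKM, 318 of 8778 were lower at 2 h and 250 of 8905 at 24 h, and among members at that level 1 and 2 were. At 7 d, 29 of 79 were lower, against 14.3% of all loci, and 0 were higher, against 12.6%. At a mean of at least 5 FPKM, 26 members and 997 of 8722 loci were lower at 7 d. Of the 78 genes measured throughout, 66 had their lowest ratio at 7 d and 27 had a ratio below 0 at every time. The matching shares over all genes were not computed, so neither count is read as particular to these genes.

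**Figure D1:**
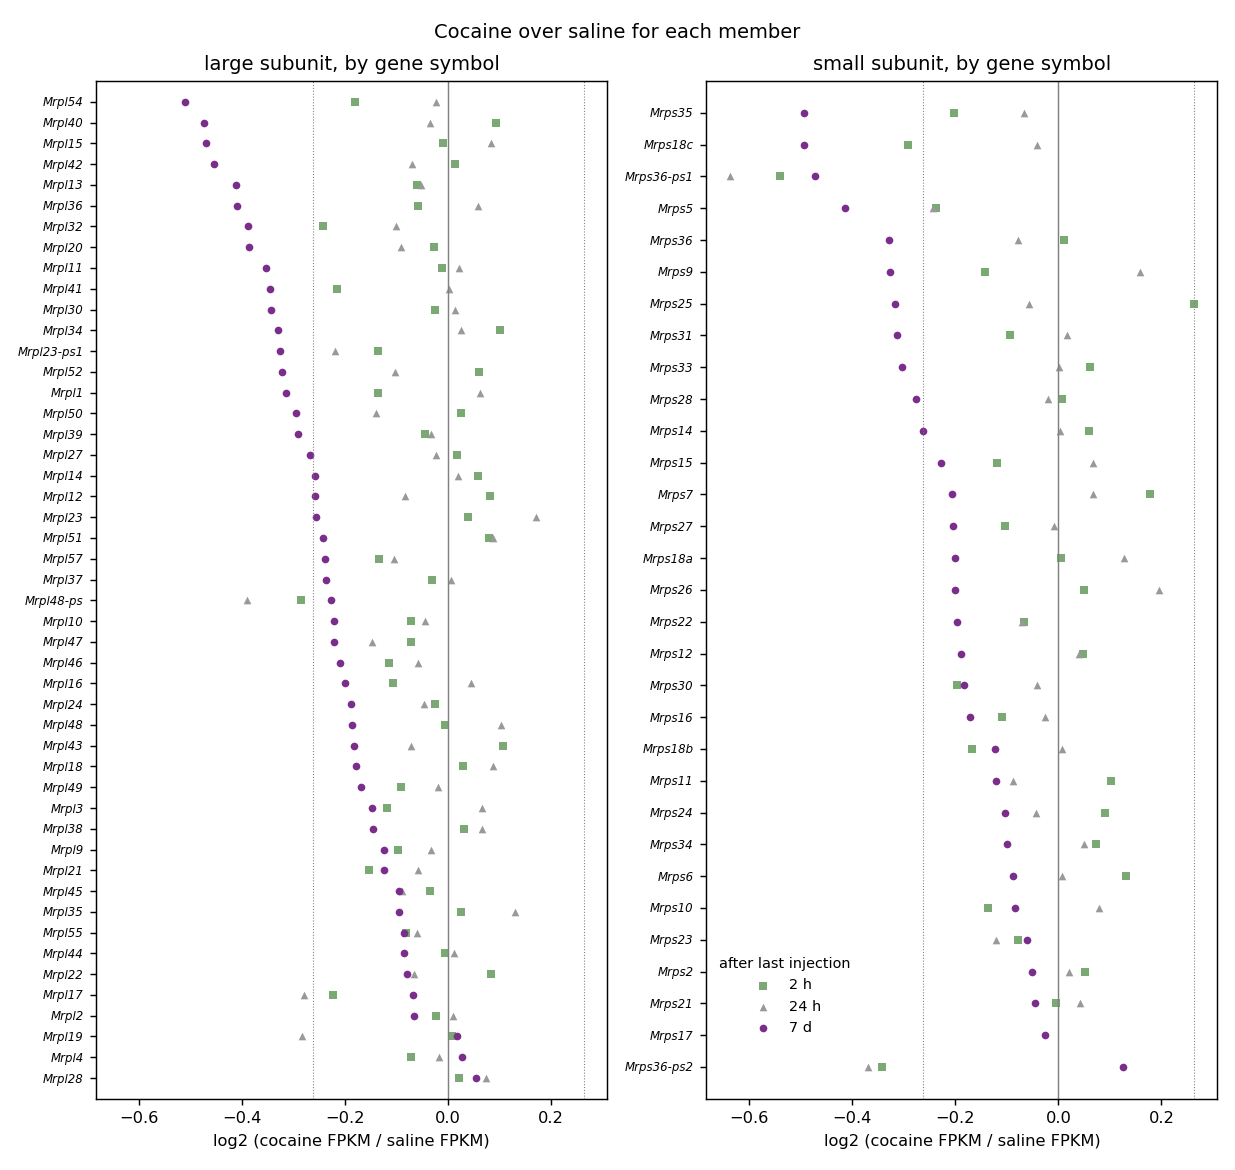
Log2 ratio of cocaine over saline FPKM (x axis) for each mitochondrial ribosomal protein gene (y axis, ordered by the 7 d ratio), with large-subunit symbols on the left and small-subunit symbols on the right; squares are 2 h, triangles 24 h, circles 7 d, and dotted lines mark a 1.2-fold difference. The 7 d circles lie left of 0 for 75 of 79 genes, while the 2 h and 24 h symbols scatter on both sides.

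The large and the small subunit had similar medians. At 7 d the 48 large-subunit genes had a median log2 ratio of -0.23 with 18 lower by at least 1.2-fold, and the 31 small-subunit genes had a median of -0.20 with 11 lower. Of all loci 14.3% were lower by that much. The difference of the medians, large less small, was -0.03 at 7 d, -0.02 at 24 h and 0.01 at 2 h. It stayed at -0.03 at 7 d when Mrps18a and Mrps30, whose proteins sit in the large subunit despite their symbols, were moved there and Mrps36, now placed with the alpha-ketoglutarate dehydrogenase complex, was left out. The genes were also split by evolutionary origin at 7 d. Beside these counts, 14.3% of all loci were lower by at least 1.2-fold and 51% lay at or below -0.000909. The 47 proteins with a bacterial counterpart had a median of -0.20, with 44 below 0 and 15 lower by at least 1.2-fold. The 27 proteins found only in mitochondria had a median of -0.24, with all 27 below 0 and 11 lower by at least 1.2-fold. With the trend of the ratio with transcript length taken out, by groups of similar length, the median over all genes is near 0 by construction. The medians were then -0.05 with 32 of 47 below 0 and -0.12 with 25 of 27 below 0. The 18 small-subunit proteins with a bacterial counterpart had a median of 0.00. The difference between the origins was not tested.

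**Figure D2:**
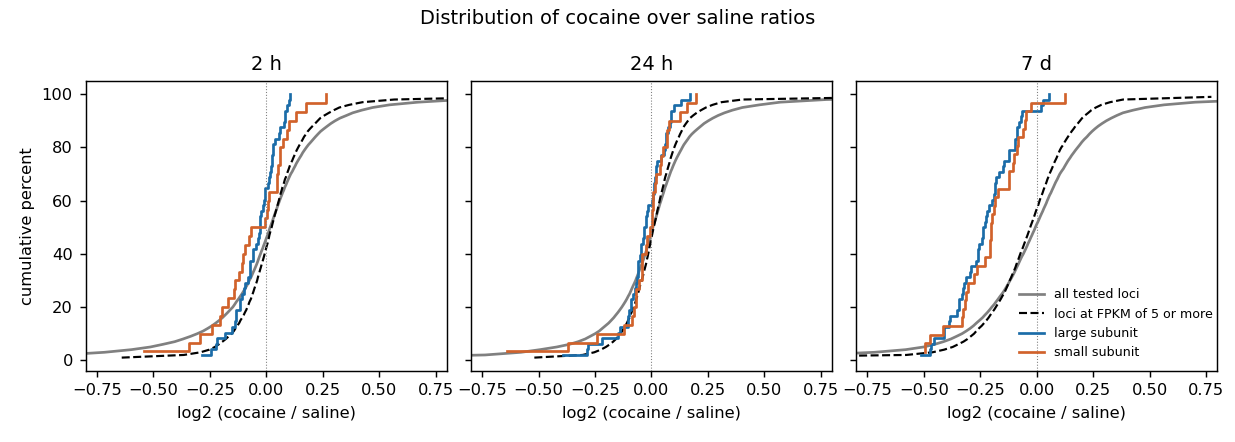
Cumulative percent of genes or loci (y axis) at or below a given log2 ratio of cocaine over saline (x axis) at 2 h, 24 h and 7 d, for large-subunit genes, small-subunit genes, all tested loci and loci with a mean of at least 5 FPKM. At 7 d the 2 subunit curves lie together to the left of the all-locus curves, with medians of -0.23 and -0.20 against -0.01 for all loci.

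The lowest ratio at 7 d belonged to Mrpl54, a large-subunit protein found only in mitochondria (GRCm38 chr10:81264713-81266934). It stood at 34.6 FPKM in saline and 30.5 FPKM in cocaine at 2 h, at 29.4 and 28.9 FPKM at 24 h, and at 39.4 and 27.6 FPKM at 7 d, a log2 ratio of -0.51. The 7 d saline value was thus the highest of its 6 values and the 7 d cocaine value the lowest. Mrps35, a small-subunit protein found only in mitochondria (chr6:147042764-147070903), had 15.6 and 13.6 FPKM at 2 h, 12.4 and 11.8 FPKM at 24 h, and 16.3 and 11.5 FPKM at 7 d, a log2 ratio of -0.49. Mrpl40, a large-subunit protein (chr16:18836578-18970309), was higher in cocaine at 2 h, with 19.2 FPKM in saline and 20.5 FPKM in cocaine. Its values were 17.7 and 17.3 FPKM at 24 h and 24.2 and 17.4 FPKM at 7 d, a log2 ratio of -0.47. In Mrpl40 the 7 d saline value stood apart from the other 5, and the 7 d cocaine value lay among them.

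Mrps18c is 1 of 3 paralogs, with Mrps18a and Mrps18b, that descend from the same bacterial small-subunit protein, and their proteins occupy different places in the mitochondrial ribosome. Mrps18c (chr5:100798627-100804471) was at 37.5 and 30.6 FPKM in saline and cocaine at 2 h, at 30.4 and 29.5 FPKM at 24 h, and at 38.3 and 27.2 FPKM at 7 d. Its log2 ratios were -0.29, -0.04 and -0.49, and apart from loci with pseudogene names it was the only gene lower by at least 1.2-fold at more than 1 time. Mrps18a (chr17:46110986-46144216) was at 37.2 and 37.3 FPKM at 2 h, 35.7 and 39.1 FPKM at 24 h, and 40.9 and 35.6 FPKM at 7 d. Mrps18b (chr17:35879819-35916389) was at 17.8 and 15.8 FPKM at 2 h, 15.0 and 15.0 FPKM at 24 h, and 16.7 and 15.3 FPKM at 7 d. The 7 d log2 ratios of the paralogs were -0.49 for Mrps18c, -0.20 for Mrps18a and -0.12 for Mrps18b, all below 0 and in that order. With the trend with transcript length taken out they were -0.26, -0.02 and 0.06, so Mrps18b was no longer below 0.

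Among the other proteins with known roles, Mrpl12 and Mrpl10 form the stalk that recruits translation factors to the large subunit. Mrpl12 was at 52.1 FPKM in saline and 43.6 FPKM in cocaine at 7 d, a log2 ratio of -0.26, after 40.4 and 38.1 FPKM at 24 h. Mrpl10 was at 25.4 and 21.8 FPKM at 7 d, a log2 ratio of -0.22, after 22.5 and 21.8 FPKM at 24 h. Mrpl15 was at 27.4 and 19.7 FPKM at 7 d, and its ratio of -0.47 came from a locus whose longest transcript, 4203 nt, was among the longer ones of the family. Mrps30 was at 10.9 and 9.56 FPKM at 7 d, a log2 ratio of -0.18. Mrps36 was at 39.0 and 31.0 FPKM, a log2 ratio of -0.33.

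Few genes held their saline level at 7 d. Mrpl28 was at 28.6 FPKM in saline and 29.7 FPKM in cocaine, Mrpl4 at 21.6 and 22.0 FPKM, Mrpl19 at 8.78 and 8.89 FPKM, and Mrps17 at 30.2 and 29.7 FPKM. With the pseudogene-named locus Mrps36-ps2, at 3.55 and 3.88 FPKM and a log2 ratio of 0.13, these had the highest ratios of the family. Mrps21, the most abundant member at 24 h, was also close to its saline level, with 87.7 and 84.9 FPKM at 7 d. Mrpl48, Mrpl42, Mrpl20 and Mrps34 followed Mrps21 in abundance, at 58.8 to 61.8 FPKM in saline at 24 h. Their 7 d log2 ratios were -0.19, -0.46, -0.39 and -0.10, so abundant members were found at both ends of the range. Mrps34 shares its locus with Nme3, and its value therefore holds reads of both genes. Mrpl1, at 3.64 FPKM in saline at 24 h, was the least abundant member without a pseudogene name and was at 4.39 and 3.51 FPKM at 7 d.

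At 2 h, Mrps25 had the highest ratio of the family, with 19.6 FPKM in saline and 23.6 FPKM in cocaine, and it was the single member at or above 1.2-fold. Mrps7, Mrps6, Mrpl43 and Mrps11 followed, with log2 ratios of 0.18, 0.13, 0.11 and 0.10. At the other end, Mrpl32 was at 19.4 and 16.4 FPKM and Mrps5 at 19.7 and 16.7 FPKM, log2 ratios of -0.24 and -0.24. At 24 h the highest ratios were those of Mrps26 at 0.20, Mrpl23 at 0.17, Mrps9 at 0.16, Mrpl35 at 0.13 and Mrps18a at 0.13. The lowest at 24 h, apart from loci with pseudogene names, were Mrpl19, at 7.98 and 6.53 FPKM, and Mrpl17, at 40.2 and 33.1 FPKM, with a log2 ratio of -0.28 each. Mrpl17 had a ratio of -0.07 at 7 d and Mrpl19 one of 0.02, so the members lowest at 24 h were not those lowest at 7 d.

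Most of the counts at 2 h and 24 h came from 3 loci with pseudogene names and low levels. Mrps36-ps1 (chr17:53866715-53867020) was at 1.06 and 0.695 FPKM at 2 h, 1.5 and 0.928 FPKM at 24 h, and 1.48 and 1.04 FPKM at 7 d, and it was the only member lower by at least 1.2-fold at all 3 times. Mrps36-ps2 had log2 ratios of -0.34 and -0.37 at 2 h and 24 h, and Mrpl48-ps had -0.29 and -0.39. Mrpl23-ps1 was lower by that much only at 7 d, at 4.45 and 3.53 FPKM. Reads from such copies can be assigned to their parent genes or the reverse, so these values are uncertain. Without the 4 pseudogene-named loci, 1 member was lower by at least 1.2-fold at 2 h, 2 at 24 h and 27 at 7 d.

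Promoter sequences were examined for letters bound by factors that control nuclear genes of mitochondrial function. RefSeq start sites on GRCm38.p6, from 250 bases before to 50 bases after the start, were found for 66 of the 79 genes. The consensus motif of NRF1 occurred on either strand in 3 of the 66 (4.55%) and in 1.07% of 27025 genes. The letters CCGGAAGT, read by ETS factors such as GABP, occurred on either strand in 11 (16.7%) and in 4.31% of genes. The letters AAGATGGCG, read by YY1, occurred on either strand in 8 (12.1%) and in 1.64% of genes. At least 1 of the 3 motifs was present in a promoter of 21 of the 66 genes (31.8%) and of 6.76% of all genes, and 1 of the 21 genes had more than 1 of them. The median 7 d ratio was -0.20 in the 21 genes with a motif and -0.21 in the 45 without. For single motifs it was -0.29 in the 3 genes with the NRF1 motif, -0.20 in the 11 with the ETS letters and -0.20 in the 8 with the YY1 letters. The promoters of 3 genes with a match are printed from 200 bases before to 30 bases after the start, with the matched letters in capitals: Mrps18c (chr5:100798559-100798788, plus strand) and Mrpl36 (chr13:73330809-73331038, plus strand) for their low 7 d ratios, and Mrpl52 (chr14:54426709-54426938, plus strand) for its abundance. In Mrps18c and Mrpl52 the capitals are the ETS letters on the reverse strand, and in Mrpl36 they are the YY1 letters on the reverse strand.
Mrps18c: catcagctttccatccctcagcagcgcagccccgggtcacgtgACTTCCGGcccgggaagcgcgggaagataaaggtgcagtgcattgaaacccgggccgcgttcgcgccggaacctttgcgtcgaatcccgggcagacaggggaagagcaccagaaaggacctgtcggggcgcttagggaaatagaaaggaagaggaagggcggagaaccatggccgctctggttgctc
Mrpl36: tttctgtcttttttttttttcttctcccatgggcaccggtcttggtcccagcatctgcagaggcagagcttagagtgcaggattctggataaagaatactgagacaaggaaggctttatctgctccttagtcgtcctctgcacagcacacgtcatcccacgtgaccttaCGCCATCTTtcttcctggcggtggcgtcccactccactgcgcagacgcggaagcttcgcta
Mrpl52: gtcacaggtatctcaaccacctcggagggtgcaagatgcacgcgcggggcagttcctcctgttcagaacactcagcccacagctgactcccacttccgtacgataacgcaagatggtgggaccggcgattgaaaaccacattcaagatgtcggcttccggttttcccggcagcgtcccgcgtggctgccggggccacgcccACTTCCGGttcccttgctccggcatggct
Mrpl36 was at 33.0 FPKM in saline and 24.8 FPKM in cocaine at 7 d, a log2 ratio of -0.41, and Mrpl52 was at 72.2 and 57.7 FPKM, a log2 ratio of -0.32. A match is a description of these letters and was not tested as a binding site.

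The second comparison set the saline levels of the 3 tables side by side. The tables were normalized separately by the authors, so levels set across them also hold any difference between those normalizations. For the 78 genes measured throughout, the saline level at 7 d exceeded that at 24 h for 71, with a median log2 ratio of 0.17. Of the 13784 genes in all 3 tables it did so for 6222, with a median of -0.03. By at least 1.2-fold, 29 of the 78 were higher in saline at 7 d than at 24 h, against 11.8% of all genes. Between the 2 h and 24 h saline groups the median was 0.05, with 7 of 78 higher by at least 1.2-fold against 7.1% of all genes and 2 lower against 11.2%. Between the 7 d and 2 h saline groups it was 0.17, with 16 of 78 higher against 13.4%. The large-subunit genes had a median of 0.24 and the small-subunit genes one of 0.15 in the 7 d saline group over the 24 h one. Over the 2 h saline group the medians were closer, 0.17 and 0.15.

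The 7 d saline group was the one that stood apart. The levels of the 78 genes summed to 1972 and 1941 FPKM in saline and cocaine at 2 h, to 1926 and 1912 FPKM at 24 h, and to 2260 and 1920 FPKM at 7 d. The 7 d saline group held the highest of the 6 values for 62 of the 78 genes (79.5%), and for 24.8% of all genes. In the 7 d cocaine group, 45 genes lay within the range of the 4 groups of 2 h and 24 h, 20 lay below it and 13 above it. The matching shares over all genes were not computed for that range. The 7 d cocaine value was the lowest of the 6 for 20 of the 78 genes (25.6%), and for 17.0% of all genes. The median log2 ratio of the 7 d cocaine group was 0.00 over 24 h cocaine and -0.01 over 24 h saline, against -0.05 and -0.04 over all genes. The same 7 d saline values enter the 7 d ratio and the saline comparison, so the low ratios and the high saline levels are not independent observations.

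**Figure D3:**
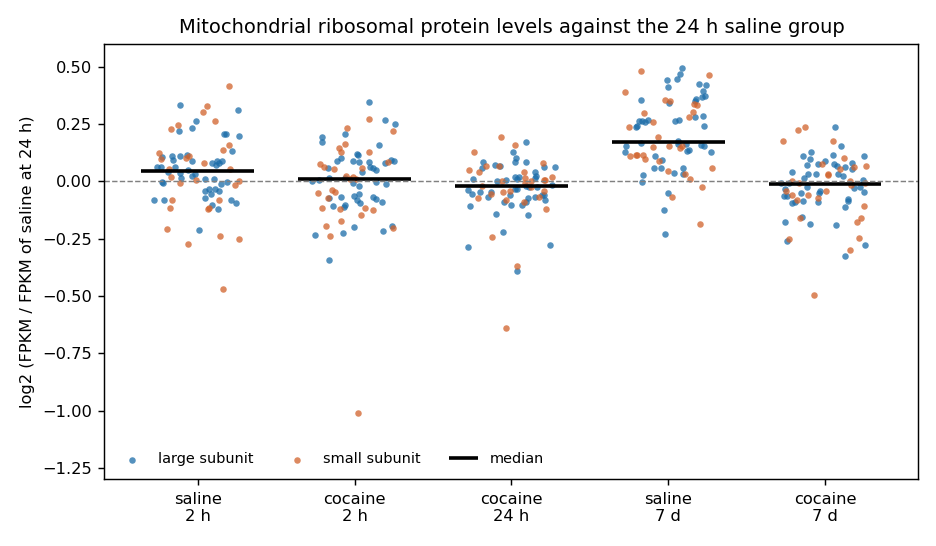
Log2 ratio of each gene's FPKM to its FPKM in the 24 h saline group (y axis) for the 78 mitochondrial ribosomal protein genes measured throughout, in the other 5 groups (x axis), coloured by subunit, with black bars at the medians. The 7 d saline group has a median of 0.17, and the 7 d cocaine group has a median of -0.01, level with the 24 h saline group.

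The same was seen in single genes. Mrpl20, a large-subunit protein with a bacterial counterpart, was at 64.5, 60.6 and 83.8 FPKM in saline at 2 h, 24 h and 7 d, and at 63.3, 56.9 and 64.1 FPKM in cocaine. Mrpl42, found only in mitochondria, was at 65.4, 61.8 and 79.4 FPKM in saline and at 66.0, 58.9 and 57.9 FPKM in cocaine. In both genes the 7 d saline value exceeded the other 5. The largest excess of the 7 d over the 24 h saline level was that of Mrpl23, 0.49 on the log2 scale. Mrps30 was an exception, with 15.3, 11.4 and 10.9 FPKM in saline and its highest value at 2 h.

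The 7 d ratio varied with transcript length over all genes, and most members have short transcripts. The longest annotated transcript had a median of 1213 nt, from 412 to 6073 nt, over the 76 members with a length, against 3010.5 nt over 12908 single-gene loci at 7 d. Over all these loci, Spearman's correlation of length with the 7 d ratio was 0.44, and over the members it was 0.22. At 2 h it was 0.14 over all loci and at 24 h 0.080. The points of each correlation share the same libraries, and the values are given as descriptions across genes. In the shortest of 20 length groups the median 7 d log2 ratio over all genes was -0.23, and in the longest it was 0.14. For saline at 7 d over saline at 24 h the same groups had medians of 0.22 and -0.19, and for saline at 7 d over saline at 2 h they had 0.25 and -0.19. Ratios without the 7 d saline group had smaller differences between the shortest and the longest group. The medians were 0.00 and -0.06 for cocaine at 7 d over 24 h, 0.00 and -0.11 for cocaine at 7 d over 2 h, -0.01 and 0.06 for cocaine at 2 h over 24 h, and 0.01 and 0.08 for cocaine over saline at 2 h.

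**Figure D4:**
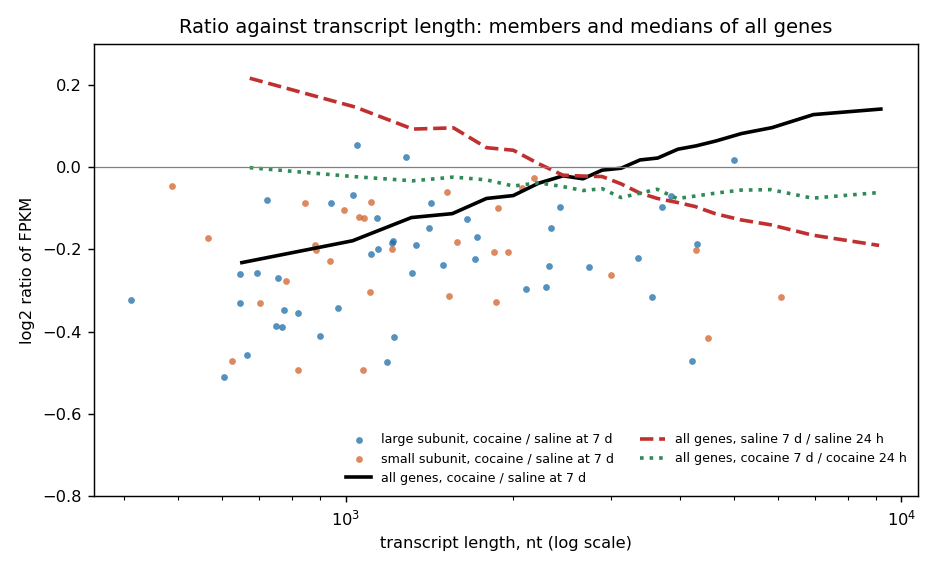
Log2 ratio (y axis) against the length of the longest transcript in nt (x axis, log scale), with each mitochondrial ribosomal protein gene as a point at its 7 d cocaine over saline ratio and with lines for the medians of all genes in 20 length groups. The solid line runs from -0.23 to 0.14 and the dashed line (saline, 7 d over 24 h) from 0.22 to -0.19, while the dotted line (cocaine, 7 d over 24 h) runs from 0.00 to -0.06.

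Members of either length class were lower at 7 d, to different degrees. The 26 members with transcripts under 1000 nt had a median log2 ratio of -0.30, and 15 of them were lower by at least 1.2-fold. Other loci of that length with a mean of at least 5 FPKM had a median of -0.24, and 43.7% of the 556 were lower. The 50 longer members had a median of -0.19, with 13 lower. The 7087 other loci of at least 1000 nt and 5 FPKM had a median of -0.01, with 6.26% lower. Those loci were not matched to the members in length. In the length groups from 865 to 1897 nt, the medians over all genes ran from -0.18 to -0.08. Taking the median of the length group out of each ratio places the median over all genes near 0. The median of the members at 7 d was then -0.10, with 59 of 76 below 0. Of these, 8 remained lower by at least 1.2-fold, where 6.61% of all loci were: Mrpl15, Mrps5, Mrps25, Mrpl40, Mrpl1, Mrps35, Mrpl13 and Mrpl54. At 2 h and 24 h, 3 of 75 members were lower by at least 1.2-fold after the same step, against 8.25% and 6.88% of all loci. Mrps36-ps2 and Mrpl48-ps have no transcript length and were not among the 75. At 2 h Mrps5 passed the fold only after the step, at -0.27 from -0.24. The large-subunit median at 7 d was then -0.11 and the small-subunit median -0.06. The part of transcript length in the 7 d result beyond these values was not tested.

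Mrps5 and Mrps25 were among the longest members by annotated transcript and held their low ratio after this step. Mrps5, Mrps25, Mrpl15 and Mrpl1 fell in length groups whose medians over all genes were above 0, so the step lowered their ratios. The lengths were those of the longest annotated transcript, and which transcript was expressed here was not determined. Mrps5, a small-subunit protein with a bacterial counterpart (chr2:127587222-127607017), was at 21.4 FPKM in saline and 16.0 FPKM in cocaine at 7 d. Its log2 ratios were -0.24, -0.24 and -0.41 at 2 h, 24 h and 7 d, and its length-adjusted 7 d ratio was -0.48. Mrps25 (chr6:92091390-92184033) was at 25.8 and 20.7 FPKM at 7 d, with a length-adjusted ratio of -0.41. Mrps21, with a transcript of 488 nt, moved the other way, from -0.05 to 0.19 after the adjustment.

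Other nuclear genes of the same machinery were read from lists of named genes. Of the 5 ribosomal subunits that were tested at 7 d under other symbols, 3 were lower by at least 1.2-fold, where 14.3% of all loci were. Dap3, a GTP-binding protein of the small subunit, was at 56.5 FPKM in saline and 41.7 FPKM in cocaine, a log2 ratio of -0.44. Ict1, a peptidyl-tRNA hydrolase built into the large subunit, was at 50.9 and 37.9 FPKM, a log2 ratio of -0.43. Aurkaip1 was at 68.5 and 53.9 FPKM, and Ptcd3 and Gadd45gip1 had log2 ratios of -0.21 and -0.19. The median of the 5 was -0.35, and none was above 0.

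The factors that work with the ribosome were counted in the same way, beside the 14.3% of all loci that were lower by at least 1.2-fold at 7 d and the 12.6% that were higher. The 14 translation factors tested at 7 d had a median log2 ratio of -0.16, and -0.13 after the length adjustment. Of them 2 were past the fold, a share equal to that of all loci, the release factor gene Mtrf1l at -0.41 and the RNA-binding protein gene Slirp at -0.39. Taco1, a translational activator, had the highest ratio at 0.05, and the elongation factor gene Tufm was at 20.5 and 20.6 FPKM. The 19 assembly factors had a median of -0.05, with a count of 2 lower that was below the share of all loci, Gtpbp10 at -0.31 and Malsu1 at -0.27, and 1 higher, Ybey at 0.38 from a level near 1.08 FPKM in cocaine. The 16 mitochondrial tRNA synthetases had a median of -0.10, with 3 lower and 1 higher, from Lars2 at -0.80 to Wars2 at 0.33. Lars2 stood far above the others at every time. It was at 566 and 697 FPKM at 2 h and at 634 and 519 FPKM at 24 h. At 7 d it was at 1399 and 801 FPKM, where the next, Iars2, was at 13.3 and 12.2 FPKM. Whether the Lars2 values hold only reads of that gene was not tested. Wars2 was low, at 0.841 and 1.08 FPKM. The 12 genes of mitochondrial transcription and its nuclear regulators had a median of 0.05, with 2 lower, Mterf1a at -0.33 and Tfb2m at -0.29, and with Polrmt, the mitochondrial RNA polymerase, highest at 0.23.

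Groups of other short, abundant transcripts were also lower at 7 d. The 69 cytosolic ribosomal proteins had a median log2 ratio of -0.25, with 31 lower by at least 1.2-fold, and the 34 subunits of respiratory complex I had a median of -0.30, with 20 lower. Of all loci 14.3% were lower by that much. Of the 556 loci outside the family under 1000 nt and at a mean of at least 5 FPKM, 43.7% were. After the length adjustment the medians were -0.05 for cytosolic ribosomal proteins and -0.11 for complex I, beside -0.10 for the mitochondrial ribosomal proteins. No test of the difference between these groups was possible with pooled values, so the 7 d pattern is not shown to be particular to the mitochondrial ribosome. At 2 h the cytosolic ribosomal proteins had a median of 0.08 and the mitochondrial ones -0.03.

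A pair of large-subunit genes lay outside the naming rule because their loci begin with another gene's name. The locus of Bre and Mrpl33 was at 111 FPKM in saline and 85.0 FPKM in cocaine at 7 d, a log2 ratio of -0.38, after -0.01 at 2 h and 0.08 at 24 h. The locus of Ccdc142 and Mrpl53 was at 51.3 and 37.4 FPKM at 7 d, a log2 ratio of -0.45, after -0.26 and -0.23. Their 7 d ratios fall in the lower part of the range of the 79 members.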

How the data were processed

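RNA of the prefrontal cortex was sequenced in 12 libraries, 2 per group, each from 5 mice. Per the labels' processing notes the authors used CASAVA 1.8.2, Trimmomatic 0.32, TopHat2 2.0.12, Cufflinks 2.2.1 and Cuffdiff, and the loci lie on GRCm38, although the study's methods name an older build. The deposited tables hold pooled FPKM values for 2 groups each, computed by the authors from both libraries, and the depth behind each value is unknown. Their columns of fold change, test statistic, p and q hold the authors' own comparison and were not used. The headers name the groups by short codes only. The column order, saline before cocaine, was taken from the study's own tables of the same values.

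Ratios were log2((cocaine FPKM + 0.1)/(saline FPKM + 0.1)), which understates differences of low genes. Loci with status OK were kept, with 1 locus per gene, the longest. Loci naming several genes were kept: Mrps24 with Urgcp, Mrps6 with Slc5a3 and Mrps34 with Nme3, and at 7 d Mrpl38 with Trim47 and Trim65 and Mrps26 with Oxt. Transcript lengths, by symbol, were those of the longest GENCODE transcript, in 20 groups of equal size. Named in the text were the 5 highest and 5 lowest members by ratio at each time with a mean of at least 1 FPKM, the 5 highest and lowest by saline level at 24 h, those past 1.2-fold at more than 1 time, and members with stated roles. Mrpl13, Mrpl15, Mrpl36 and Mrpl52 were named after their values were seen. Members and lists were chosen with earlier results of these data known. Ratios were computed in Python 3.11.15 with pandas 2.3.3 and scipy 1.17.1, and the code was tested on simulated data. The alternatives tried were other pseudocounts, a filter on low values, other folds, every locus, single-gene loci, centring and length.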

Additional observations from a re-analysis of the deposited data

Results flagged for a closer look

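Mrps25, a small-subunit protein found only in mitochondria, differed in opposite directions at 2 of the times. It was at 19.6 FPKM in saline and 23.6 FPKM in cocaine at 2 h, a log2 ratio of 0.26, and at 25.8 and 20.7 FPKM at 7 d, a log2 ratio of -0.32. The difference between the times was not tested, since each group has 1 pooled value. Mrps25 was the only member past 1.2-fold in both directions. At 2 h it stood just past the threshold, and it was no longer past 1.2-fold with a pseudocount of 1, after centring on all loci or with the length trend taken out.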

How the results depend on the processing

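Of 127 results under alternative settings, 106 stayed within 0.05 on the log2 scale, or within 1.5 times for a count, and 21 moved by more. The large less small median at 2 h, reported as 0.01, changed sign within that margin in 4 settings: -0.03 with a mean of at least 5 FPKM, -0.02 by position in the ribosome, -0.03 without pseudogene-named loci and -0.03 with the length trend taken out. At 2 h the count of members lower by at least 1.2-fold, reported as 4, was 1 with a mean of at least 5 FPKM, 1 without pseudogene-named loci (an alternative chosen after seeing the data), 1 at 1.3-fold and 0 at 1.5-fold. The 1 member higher at 2 h became 0 with a pseudocount of 1, after centring, at 1.3-fold, at 1.5-fold and with the length trend taken out (added after seeing the data). At 24 h the count of 5 lower members was 3 with a pseudocount of 1, 2 with a mean of at least 5 FPKM, 2 at 1.3-fold, 1 at 1.5-fold, 2 without pseudogene-named loci and 3 with the length trend taken out. That last setting dropped Mrps36-ps2 and Mrpl48-ps, which have no transcript length. Mrpl17, Mrpl19 and Mrps36-ps1 stayed past the fold in it. At 7 d the count of 29 lower members was 12 at 1.3-fold, 0 at 1.5-fold and 8 with the length trend taken out, which also moved the median from -0.21 to -0.10. Under the 7 other settings the 7 d median lay between -0.22 and -0.20. Counting every locus gave 1 higher member at 7 d, the second locus of Mrpl51 at 0.820 and 1.12 FPKM. With the span of the locus in place of transcript length the adjusted 7 d median was -0.20. The saline 7 d over 24 h median was 0.13 with the length trend taken out, against 0.17. The cause of these moves was not tested beyond the settings themselves. No paired analysis was possible because the tables hold 1 pooled value per group, and leaving out each replicate was not run for the same reason. The unknown depth limits the low loci most, above all the pseudogene-named ones.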
